A study of Mus musculus with 6 samples.

Results

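Mitochondrial fatty acid oxidation was examined in IL-4-treated macrophages from mice with and without a myeloid deletion of ATP citrate lyase (Acly). It was followed through 10 genes, *Cpt1a*, *Cpt2*, *Slc25a20*, *Acadvl*, *Acadl*, *Acadm*, *Hadha*, *Hadhb*, *Acaa2* and *Etfdh*. The genes were chosen by name from the pathway and not by a limit on their values, though earlier results of these data were known. All 10 were found among the 24445 genes of the read count table, and all 10 passed the filter on low counts, with 167 to 3425 counts per library. Bone marrow-derived macrophages (BMDMs) were grown for 7 days with L929-conditioned medium and then given IL-4 at 100 U/mL, with RNA taken after 24 h. The cells came from female mice on the C57Bl/6J background. In AclyM-KO cells, exon 9 of both *Acly* alleles is flanked by loxP sites for deletion by a Cre transgene expressed from the myeloid gene *Lyz2*. The Ctrl cells, labelled WT, carry the floxed alleles without Cre. Each group held 3 libraries, and every library was IL-4-treated, so the comparison is between genotypes under IL-4 and not between IL-4 and no treatment. The study describes the replicates as biological in 1 place and as technical replicates from pooled mice in another, so p-values here measure the spread between libraries, which may be technical.

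The kept rows held 12151975 to 14739689 counts per Ctrl library and 14745614 to 15587283 per AclyM-KO library. *Acly* itself was 332, 321 and 350 CPM (counts relative to the TMM-scaled library total) in Ctrl and 146, 134 and 136 CPM in AclyM-KO, or 41.4% of the Ctrl mean (edgeR adjusted p = 5.23e-10). The libraries expressed all 8 macrophage markers examined, with summed levels of 12460 to 13030 CPM in Ctrl and 12180 to 12620 CPM in AclyM-KO. Of 7 adipocyte markers, 4 had no count in any library, among them *Lep* and *Plin1*. *Adipoq* was counted in every library, at 18.24 to 26.01 CPM in Ctrl and 16.85 to 18.09 CPM in AclyM-KO. The remaining adipocyte markers had at most 3 counts in any library. All 6 stromal, all 5 erythroid and all 6 lymphocyte markers had too few counts to be tested, with summed levels of at most 1.302, 1.023 and 0.708 CPM. Summed neutrophil markers stood at 33.8 to 36.4 CPM in Ctrl and 64.3 to 68.6 CPM in AclyM-KO, with *Ly6g* at 0 in 5 of 6 libraries. *Mmp8* made up the largest part of these sums, with means of 16.9 and 40.1 CPM. Of the 10 markers, 5 (*Ly6g*, *Elane*, *Mpo*, *Camp* and *Cxcr2*) had at most 12 counts in any library and were not tested. Whether the sums reflect neutrophils, and the part of such cells in the results below, was not tested. In bulk RNA, fewer expressing cells and less RNA per cell cannot be told apart.

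Fatty acid oxidation shortens fatty acids in the mitochondrial matrix to acetyl-CoA and feeds electrons into the respiratory chain. Long-chain acyl groups enter as carnitine esters through the carnitine shuttle. They are then shortened in repeated rounds of dehydrogenation, hydration, a further dehydrogenation and thiolytic cleavage. In macrophages the pathway is a classical feature of IL-4 activation, although its necessity for that activation has been questioned. *Acly* acts at the other end of the same carbon flow, since it makes cytosolic acetyl-CoA, from which malonyl-CoA, the inhibitor of the first step of the shuttle, is formed.

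Expression of the pathway differed little between genotypes. Among the 10 genes, *Cpt1a* rose and *Etfdh* fell in AclyM-KO, and the remaining 8 did not pass the test (edgeR quasi-likelihood test, Benjamini-Hochberg adjusted over 12023 genes, limit 0.05). The 2 called genes are 20% of the members. The share called among all genes was 24.9%, with 12.4% higher and 12.6% lower. With a log2 fold change beyond 0.58 required as well, 0 members were called, against 5.55% of all genes (2.98% higher and 2.57% lower). At an unadjusted edgeR p under 0.05 there were 4 members, *Cpt1a*, *Etfdh*, *Acadl* and *Hadha*. Such values were common, since an edgeR p of 0.044 stood at rank 4238 of 12023 genes and 0.0513 at rank 4451. Log2 fold changes are given as AclyM-KO over Ctrl. They were above 0 for 5 members and below 0 for the other 5. Their median was 0.0026, compared with 0.0014 over all genes, and the median size regardless of sign was 0.11, compared with 0.15 over all genes.

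The data also limit how large a difference between these libraries could have gone unseen. The 95% intervals, like the p-values, measure the spread between libraries, which may be technical, so they may not hold across mice. Mean expression in AclyM-KO lay between 87.1% of the Ctrl mean, for *Etfdh*, and 118%, for *Cpt1a*. The 95% intervals of the 10 log2 fold changes together spanned -0.32 to 0.34, so each of them lay within -0.58 to 0.58, as did those of 72.6% of all genes tested. Summed over the members, expression was 685.8, 690.7 and 670.9 CPM in the 3 Ctrl libraries and 691.7, 691.0 and 698.6 CPM in the 3 AclyM-KO libraries. All 3 AclyM-KO sums lay above the highest Ctrl sum, the lowest of them by less than the spread within either group. The mean was 683 ± 10.3 CPM in Ctrl and 694 ± 4.21 CPM in AclyM-KO (SD, n = 3 each).

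**Figure D1:**
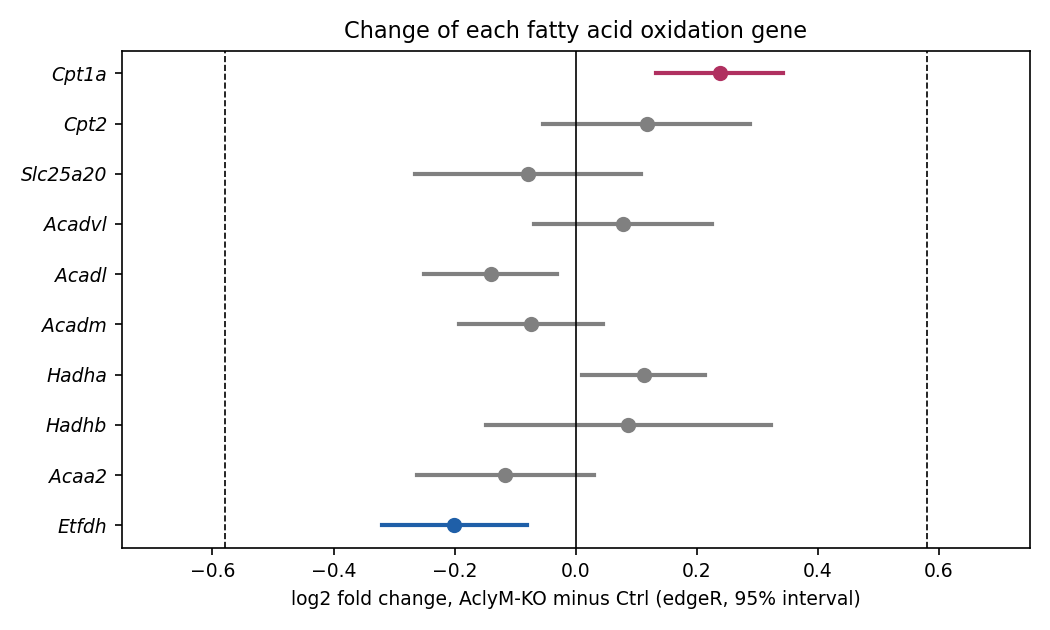
Log2 fold change of each fatty acid oxidation gene in AclyM-KO against Ctrl (horizontal axis), with lines for the edgeR 95% interval and dashed lines at -0.58 and 0.58. *Cpt1a* (0.24, red) and *Etfdh* (-0.20, blue) were called at an adjusted p under 0.05, the 8 genes in grey were not, and no interval reaches a dashed line.

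The carnitine shuttle is formed by *Cpt1a*, *Slc25a20* and *Cpt2*. *Cpt1a*, on the plus strand of chromosome 19 from 3322334 to 3385733 (GRCm38, GENCODE M21), encodes the outer-membrane carnitine palmitoyltransferase that commits long-chain acyl groups to oxidation. It was at 96.2, 95.8 and 92.1 CPM in the 3 Ctrl libraries and at 115, 108 and 112 CPM in the 3 AclyM-KO libraries. The groups did not overlap, and the lowest AclyM-KO library lay above the highest Ctrl library. The means were 94.7 ± 2.24 and 112 ± 3.29 CPM (SD, n = 3 each), which is a log2 fold change of 0.24 (standard error 0.0494, 95% interval 0.13 to 0.34, edgeR adjusted p = 0.00247). The call was present in all 17 alternative fits, in which the log2 fold change ranged from 0.21 to 0.26. By exact permutation of the libraries the two-sided p was 0.10, and with 3 libraries in each group no smaller value is possible.

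Of the 3 CPT1 genes, *Cpt1a* was by far the most expressed. Per kilobase of transcript it was at 21.9 CPM in Ctrl and 25.9 CPM in AclyM-KO. The muscle-type isoform gene *Cpt1b* was at 0.457 and 0.277 CPM per kilobase in the same groups, and its difference did not pass the test (log2 fold change -0.71, 95% interval -1.44 to 0.016, edgeR adjusted p = 0.146). *Cpt1c*, the isoform gene known from brain, had 0 to 10 counts per library and was not tested.

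*Slc25a20*, on the plus strand of chromosome 9 from 108662088 to 108684641, encodes the inner-membrane carrier that exchanges acylcarnitine for carnitine. It was at 24.9, 23.5 and 23.8 CPM in Ctrl and at 24.9, 20.3 and 23.2 CPM in AclyM-KO, with overlapping groups (log2 fold change -0.079, standard error 0.0877, edgeR adjusted p = 0.559). *Cpt2*, on the minus strand of chromosome 4 from 107903981 to 107923610, encodes the inner-membrane transferase that restores acyl-CoA in the matrix. Its libraries were at 20.5, 23.0 and 21.3 CPM in Ctrl and at 23.7, 23.1 and 23.4 CPM in AclyM-KO. The AclyM-KO values lay just above the highest Ctrl value, but the difference did not pass the test (log2 fold change 0.12, 95% interval -0.053 to 0.29, edgeR adjusted p = 0.315). Within a library, *Cpt1a* counts were 4.17 to 4.68 times those of *Cpt2* in Ctrl and 4.68 to 4.84 times in AclyM-KO, a difference in log2 ratio of 0.12 (two-sided exact permutation p = 0.20, 0.40 adjusted over 4 ratios).

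**Figure D2:**
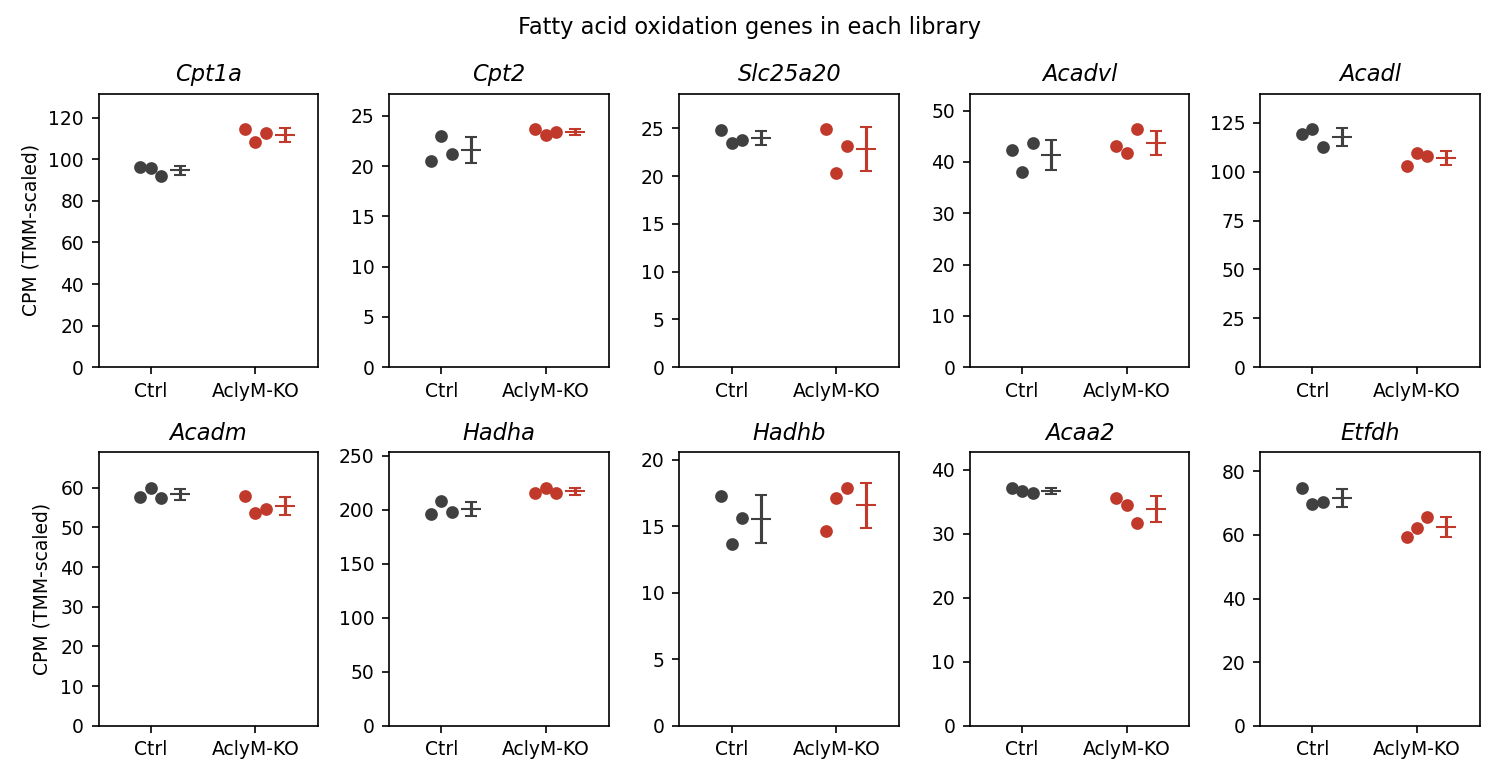
Expression of the 10 genes in each library (vertical axis, CPM scaled by TMM, starting at 0), with 3 Ctrl libraries in black and 3 AclyM-KO libraries in red, and the mean with SD beside the points. *Cpt1a*, *Cpt2* and *Hadha* are separated upward and *Acadl*, *Acaa2* and *Etfdh* downward, of which only *Cpt1a* and *Etfdh* passed the test. *Slc25a20*, *Acadvl*, *Acadm* and *Hadhb* overlap between groups.

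The first step of each round is catalysed by acyl-CoA dehydrogenases that differ in the chain length they accept. *Acadvl*, on the minus strand of chromosome 11 from 70010183 to 70015411, encodes the very-long-chain enzyme. It was at 42.4, 38.1 and 43.6 CPM in Ctrl and at 43.0, 41.8 and 46.4 CPM in AclyM-KO, so the groups overlapped (log2 fold change 0.078, standard error 0.0692, edgeR adjusted p = 0.447). The counting did not separate strands, as *Xist* and its antisense gene *Tsix* had counts that were equal in 5 libraries (7080 to 9887 counts) or differed by 2 (7560 and 7562 in AclyM-KO replicate 1). Exons of *Dvl2*, on the opposite strand, cover 976 exonic bases, 45.0% of the *Acadvl* transcript. These bases belong to *Dvl2* transcripts without a RefSeq record, and the *Dvl2* transcript with a RefSeq record shares 0 bases with *Acadvl*. *Dvl2* was at 37.5 ± 1.39 CPM in Ctrl and 42.6 ± 1.28 CPM in AclyM-KO (SD, n = 3 each, edgeR adjusted p = 0.0454), and the part of its reads in the *Acadvl* counts was not tested.

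*Acadl*, on the minus strand of chromosome 1 from 66830839 to 66863277, encodes the long-chain dehydrogenase. Its libraries were at 119, 122 and 113 CPM in Ctrl and at 103, 110 and 108 CPM in AclyM-KO. All 3 AclyM-KO libraries were below all Ctrl libraries, and the difference narrowly missed the limit (log2 fold change -0.14, standard error 0.0516, 95% interval -0.25 to -0.030, edgeR adjusted p = 0.0592). It passed without Ctrl replicate 3 (-0.18) and when counts were scaled by library totals alone (-0.16), 2 of 17 alternatives, over which the adjusted p ranged from 0.0333 to 0.219. *Acadm*, on the minus strand of chromosome 3 from 153922357 to 153944632, encodes the medium-chain dehydrogenase. Values of 57.57, 60.04 and 57.38 CPM in Ctrl and 57.99, 53.59 and 54.68 CPM in AclyM-KO overlapped (log2 fold change -0.073, 95% interval -0.19 to 0.046, edgeR adjusted p = 0.373). The ratio of *Acadl* to *Acadm* counts was 1.96 to 2.07 in Ctrl and 1.77 to 2.05 in AclyM-KO (exact permutation p = 0.50, 0.667 adjusted over 4 ratios). *Acadvl* counts were 0.313 to 0.388 of those of *Acadl* in Ctrl and 0.381 to 0.429 in AclyM-KO, again with overlap (exact permutation p = 0.20, 0.40 adjusted over 4 ratios).

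*Hadha* and *Hadhb* encode the α and β subunits of the mitochondrial trifunctional protein, which carries out the next 3 steps for long chains. The genes lie head to head on chromosome 5, *Hadha* on the minus strand from 30118304 to 30155162 and *Hadhb* on the plus strand from 30155248 to 30184593. Because their annotated starts are 86 bases apart, a single stretch of 85 bases precedes both genes. It is shown to let the shared upstream sequence be seen, is 69.4% G and C, and was read from the RefSeq promoter table for GRCm38.p6 in the direction of *Hadhb*, with GGGCGG, the core of a GC box, in capitals on either strand.
chr5:30155163-30155247: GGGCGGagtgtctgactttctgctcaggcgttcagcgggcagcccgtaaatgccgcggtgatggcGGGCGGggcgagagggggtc

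*Hadha* was the member with the most counts. It was at 196, 208 and 198 CPM in Ctrl and at 215, 220 and 215 CPM in AclyM-KO, without overlap. The log2 fold change of 0.11 (standard error 0.0478, 95% interval 0.011 to 0.21) did not pass the test (edgeR adjusted p = 0.0999), and it did so in 1 of 17 alternatives, without Ctrl replicate 2 (0.14). *Hadhb* was at 17.3, 13.7 and 15.6 CPM in Ctrl and at 14.7, 17.1 and 17.9 CPM in AclyM-KO, with wide overlap (log2 fold change 0.087, standard error 0.111, edgeR adjusted p = 0.616). The ratio of *Hadha* to *Hadhb* counts was 11.3, 15.3 and 12.6 in Ctrl and 14.7, 12.9 and 12.0 in AclyM-KO. It differed between genotypes by 0.019 on the log2 scale (exact permutation p = 0.90, 0.90 adjusted over 4 ratios).

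The *Hadhb* counts carry a limit that the other members do not share to this extent. Among GENCODE transcripts of other genes, the *Hadhb* transcript of 2045 bases has 2 processed pseudogenes that match it along its coding part. *Gm13910*, on the plus strand of chromosome 2 from 108948806 to 108950233, matches 69.8% of the transcript and differs from it at 3 of 1428 bases. *Gm9108*, on the minus strand of chromosome 15 from 103586944 to 103588368, matches 69.7% at 97.6% identity. A read from such a stretch can match more than 1 place in the genome, and neither copy is among the genes counted. The 80 bases around the first difference from *Gm13910* show how alike the 3 sequences are. They are transcript bases 284 to 363, in coding exons 4 and 5 of 16, between 30166713 and 30168551 on chromosome 5. Capitals mark bases at which *Hadhb* and a copy differ.
Hadhb: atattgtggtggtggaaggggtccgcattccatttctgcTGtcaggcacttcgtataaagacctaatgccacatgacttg
Gm13910: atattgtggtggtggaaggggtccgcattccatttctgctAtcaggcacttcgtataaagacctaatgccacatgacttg
Gm9108: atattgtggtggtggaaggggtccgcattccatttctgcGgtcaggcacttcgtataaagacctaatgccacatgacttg

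Of the other members, *Acadm* alone had a matching copy at 90% identity or more, the processed pseudogene *Gm5131*, along 33.3% of its transcript at 93.5% identity. How reads with several matches were handled is not given in the sources used here. The part of the copies in the low *Hadhb* counts was not tested. The 3 *Hadhb* transcripts of the table had the same count in each library.

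**Figure D3:**
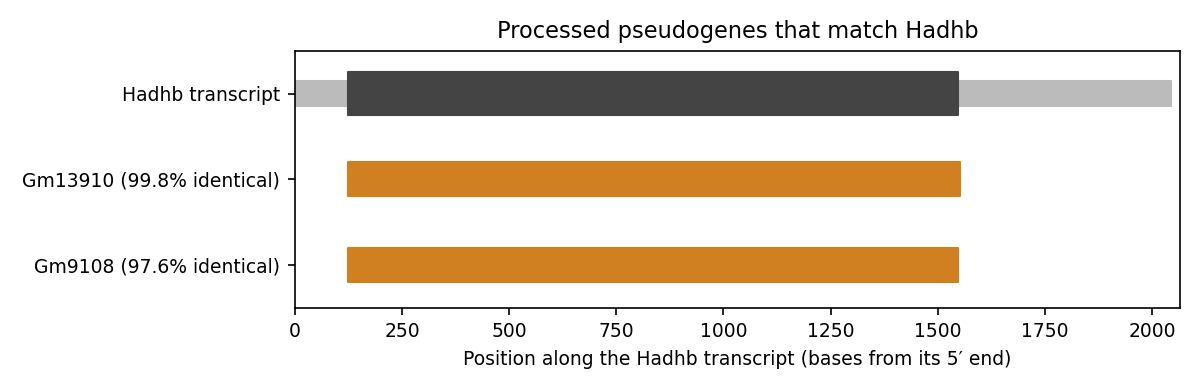
Position along the *Hadhb* transcript in bases from its 5′ end (horizontal axis), with the coding part as the dark bar and the untranslated parts in grey, and the stretches matched by 2 processed pseudogenes as orange bars. Both copies span the whole coding part, from base 124 to base 1548.

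*Acaa2*, on the plus strand of chromosome 18, encodes a thiolase that cleaves acetyl-CoA from shortened chains. Its libraries were at 37.2, 36.6 and 36.4 CPM in Ctrl and at 35.5, 34.5 and 31.7 CPM in AclyM-KO. The groups did not overlap, but the log2 fold change of -0.12 (95% interval -0.26 to 0.030) did not pass the test (edgeR adjusted p = 0.238). Over the 10 members, the groups did not overlap for 6, with *Cpt1a*, *Cpt2* and *Hadha* higher and *Acadl*, *Acaa2* and *Etfdh* lower in AclyM-KO. Among all genes tested, 40.2% were without overlap, 20.5% higher and 19.8% lower.

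Electrons taken up by the acyl-CoA dehydrogenases pass to electron transfer flavoprotein and from there to ubiquinone through the product of *Etfdh*. This gene lies on the minus strand of chromosome 3 from 79603788 to 79629500. It was at 74.9, 69.7 and 70.5 CPM in Ctrl and at 59.4, 62.3 and 65.6 CPM in AclyM-KO. All AclyM-KO libraries lay below all Ctrl libraries, with means of 71.7 ± 2.78 and 62.4 ± 3.15 CPM (SD, n = 3 each). The log2 fold change was -0.20 (standard error 0.0563, 95% interval -0.32 to -0.081, edgeR adjusted p = 0.0167). This call was lost without Ctrl replicate 1 (-0.17, adjusted p = 0.0635), without AclyM-KO replicate 1 (-0.17, adjusted p = 0.0976) and without AclyM-KO replicate 2 (-0.20, adjusted p = 0.0683) and held in 14 of 17 alternatives. Of the flavoprotein subunits themselves, *Etfa* rose from 63.4 ± 4.80 to 75.7 ± 4.29 CPM (SD, n = 3 each, log2 fold change 0.25, edgeR adjusted p = 0.00834), whereas *Etfb* was at 47.3 ± 0.550 and 45.8 ± 2.42 CPM (log2 fold change -0.048, edgeR adjusted p = 0.609). The call of *Etfa* was present in 16 of 17 alternatives and was lost without AclyM-KO replicate 1.

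The sequences before the RefSeq starts of *Cpt1a* and *Etfdh* are shown because these were the members that passed the test, in opposite directions. Both stretches lie within the GENCODE bounds of their genes, which start farther upstream, at 3322334 for *Cpt1a* and 79629500 for *Etfdh*. Each holds the 250 bases before the RefSeq start (GRCm38.p6), 5′ to 3′ on the strand of the gene, with the GC box core (GGGCGG), the CCAAT box and the nuclear receptor half-site (AGGTCA) in capitals on either strand.
Cpt1a, chr19:3323051-3323300, plus strand: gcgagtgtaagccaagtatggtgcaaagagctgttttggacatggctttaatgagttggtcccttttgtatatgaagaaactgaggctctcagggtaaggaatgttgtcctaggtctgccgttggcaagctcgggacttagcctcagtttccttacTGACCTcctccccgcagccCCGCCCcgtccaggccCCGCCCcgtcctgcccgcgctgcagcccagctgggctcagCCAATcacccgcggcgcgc
Etfdh, chr3:79628768-79629017, minus strand: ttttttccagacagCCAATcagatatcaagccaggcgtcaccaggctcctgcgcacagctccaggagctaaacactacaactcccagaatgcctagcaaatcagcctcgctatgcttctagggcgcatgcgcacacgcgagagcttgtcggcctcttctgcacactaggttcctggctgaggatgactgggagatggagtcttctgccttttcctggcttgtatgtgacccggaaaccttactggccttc

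The *Cpt1a* stretch held 2 GC box cores, 1 CCAAT and 1 AGGTCA, and the *Etfdh* stretch 1 CCAAT. In windows that also include the bases just after the start, 9 members could be searched (all but *Acaa2*). GGGCGG was found in 7 of these 9 windows and in 35.7% of all 32851 promoters searched. The windows of *Hadha* and *Hadhb*, both among the 7, are not separate sequences, since they share the stretch of 85 bases with its 2 GC box cores. CCAAT was in 2 of the 9, those of *Cpt1a* and *Etfdh*, and in 37.4% of all. AGGTCA was in those of *Cpt1a*, *Acadm* and *Acadvl*, compared with 16.3% of all. The direct repeat of AGGTCA with 1 base between the copies (DR1), the TCAAGGTCA element, which like DR1 contains AGGTCA, and CACGTG were in 0 of the 9 windows and in 0.0396%, 0.423% and 7.15% of all. A match describes these letters only.

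Levels were compared between members per kilobase of transcript, with 1 GENCODE length per gene. Transcripts of a gene with unlike lengths could hold equal counts, as those of *Acsl3* did (2492, 2976 and 3950 bases). The order below can therefore depend on the length used. In Ctrl, *Acadl* was highest at 61.5 ± 2.48 CPM per kilobase (SD, n = 3), followed by *Hadha* at 50.0 ± 1.71. *Etfdh* (30.2 ± 1.17) and *Acadm* (28.5 ± 0.725) came next and overlapped. *Acaa2*, *Cpt1a*, *Acadvl* and *Slc25a20* followed at 24.2, 21.9, 19.1 and 13.5 CPM per kilobase. *Cpt2* (9.10 ± 0.530) and *Hadhb* (7.59 ± 0.890) were lowest, 6.76 and 8.10 times below *Acadl*, respectively. The part of the near-identical copies in the *Hadhb* level was not tested. Apart from *Etfdh* and *Acadm*, no neighbours in this order overlapped in Ctrl. In AclyM-KO the first 2 places were kept but overlapped, at 55.8 ± 1.87 for *Acadl* and 54.0 ± 0.750 for *Hadha*. *Acadm* (27.1) then stood above *Etfdh* (26.3), and *Cpt1a* (25.9) above *Acaa2* (22.4), and the ranges of *Etfdh* overlapped with those of both *Acadm* and *Cpt1a*, as did those of *Acaa2* and *Acadvl*. The places of *Acadvl*, *Slc25a20*, *Cpt2* and *Hadhb* were the same in both groups.

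**Figure D4:**
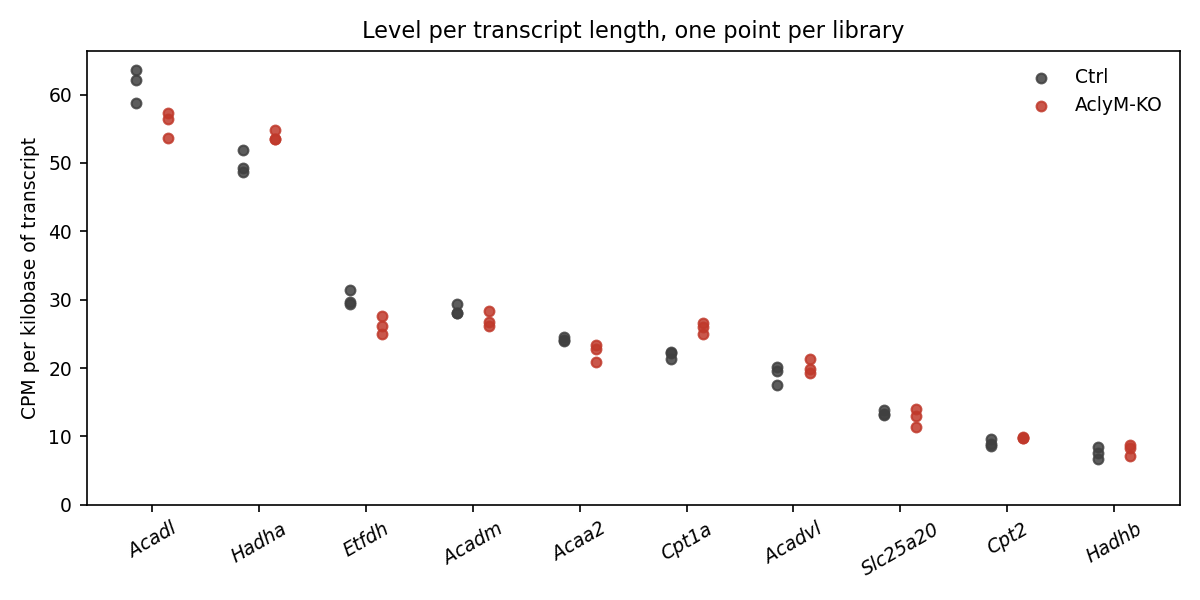
Level of each gene per kilobase of its transcript (vertical axis, CPM per kilobase, starting at 0), 1 point per library, with Ctrl in black and AclyM-KO in red and genes ordered by the Ctrl mean. *Acadl* and *Hadha* stand above the other genes, *Cpt2* and *Hadhb* below.

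The wider mitochondrial pathway was examined with 7 lists of 39 further genes, of which 35 could be tested. Of these, 7 were higher and 4 lower in AclyM-KO, which is 31.4% compared with 24.9% of all genes tested, and 0 of the called genes were beyond a log2 fold change of 0.58 (5.55% of all genes were called beyond it). The median was 0.033.

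Among acyl-CoA synthetases and carnitine uptake genes, 2 of 7 tested rose and 0 fell, against 12.4% and 12.6% of all genes tested. *Acsl3*, which activates fatty acids at the endoplasmic reticulum and on lipid droplets, rose from 111.5 ± 4.995 to 161.9 ± 6.461 CPM (SD, n = 3 each, log2 fold change 0.54, standard error 0.0529, edgeR adjusted p = 2.98e-06). It had the largest change among the called genes of these 7 lists and was called in all 17 alternatives. *Acsl5* rose by less (0.16, edgeR adjusted p = 0.0346) and was called in 10 of 17. *Slc27a1*, a fatty acid transport gene, was at -0.098 (edgeR adjusted p = 0.166). *Acsl1*, a synthetase linked to fatty acid oxidation, was at a log2 fold change of 0.032 (edgeR adjusted p = 0.753), and the carnitine transporter gene *Slc22a5* at 0.18 (edgeR adjusted p = 0.244).

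Both tested genes of malonyl-CoA turnover rose, where 12.4% of all genes tested were called higher. *Acaca* encodes the cytosolic acetyl-CoA carboxylase that makes malonyl-CoA. It went from 46.4 ± 6.91 to 64.4 ± 3.45 CPM (SD, n = 3 each, log2 fold change 0.48, standard error 0.0830, edgeR adjusted p = 6.25e-04) and was called in all 17 alternatives. *Mlycd*, whose product degrades malonyl-CoA, rose from 19.0 ± 2.87 to 23.9 ± 0.737 CPM (log2 fold change 0.32, edgeR adjusted p = 0.0276) and was called in 11 of 17. *Acacb*, the gene of the mitochondria-associated carboxylase, had 4 to 10 counts per library and was not tested.

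Of 9 other acyl-CoA dehydrogenases, 2 fell and 0 rose, against 12.6% and 12.4% of all genes tested. *Acadsb*, which acts in isoleucine breakdown, fell by 0.27 and *Acad11* by 0.30 on the log2 scale (edgeR adjusted p = 0.00426 and 0.0114), the latter call being lost without Ctrl replicate 3. *Ivd*, which acts in leucine breakdown, was at -0.20 (edgeR adjusted p = 0.0989). *Acads*, the short-chain enzyme that takes over after *Acadm*, was at -0.030 (edgeR adjusted p = 0.813). The matrix enzymes for short chains and for unsaturated fatty acids gave 1 lower gene of 9, *Acss1*, the mitochondrial acetyl-CoA synthetase (-0.18, edgeR adjusted p = 0.0361, called in 9 of 17 alternatives). *Hsd17b10* and the ketolytic thiolase gene *Acat1* were at -0.15 and -0.14 (edgeR adjusted p = 0.101 and 0.106). The hydratase gene *Echs1* and the dehydrogenase gene *Hadh* were at 0.058 and 0.059 and did not pass the test (edgeR adjusted p = 0.607 and 0.620).

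Mitochondrial thioesterases, which release free fatty acids from acyl-CoA, gave 2 higher genes of 4, *Acot9* (0.35, edgeR adjusted p = 0.00277) and *Acot13* (0.32, edgeR adjusted p = 0.0128). The share called higher among all genes tested was 12.4%. The call of *Acot9* was present in all 17 alternatives and that of *Acot13* in 16, all but the fit without Ctrl replicate 3. *Acot2* was at 0.14 (edgeR adjusted p = 0.556). *Crat*, which transfers short acyl groups to carnitine, fell by 0.15 on the log2 scale (edgeR adjusted p = 0.0395, called in 10 of 17 alternatives).

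Nuclear receptors, coactivators and related regulators of fatty acid oxidation genes gave 0 higher genes and 1 lower. Over all genes tested, 12.4% were called higher and 12.6% lower. Log2 fold changes were below 0 for all 9 genes tested in this list, with a median of -0.12 (0.0014 over all genes). Their median size regardless of sign was 0.12, compared with 0.15 over all genes, and only *Rxra* passed the test. This gene, which encodes the shared partner of the PPAR receptors, fell from 83.9 ± 6.25 to 68.9 ± 4.19 CPM (SD, n = 3 each, log2 fold change -0.29, standard error 0.0633, edgeR adjusted p = 0.00391) and was called in all 17 alternatives. *Pparg* was the most abundant of the PPAR genes, at 125 ± 4.84 CPM in Ctrl and 116 ± 3.26 CPM in AclyM-KO (log2 fold change -0.10, edgeR adjusted p = 0.166). *Ppard* was at -0.12 (edgeR adjusted p = 0.269). *Lpin1* was at -0.12 (edgeR adjusted p = 0.114). The coactivator gene *Ppargc1b* was at -0.26 (95% interval -0.50 to -0.0078, edgeR adjusted p = 0.125). *Ppara*, the receptor that drives these genes in liver, had 1 count in 1 library and none in the others, and *Ppargc1a* had 0 to 4 counts per library.

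**Figure D5:**
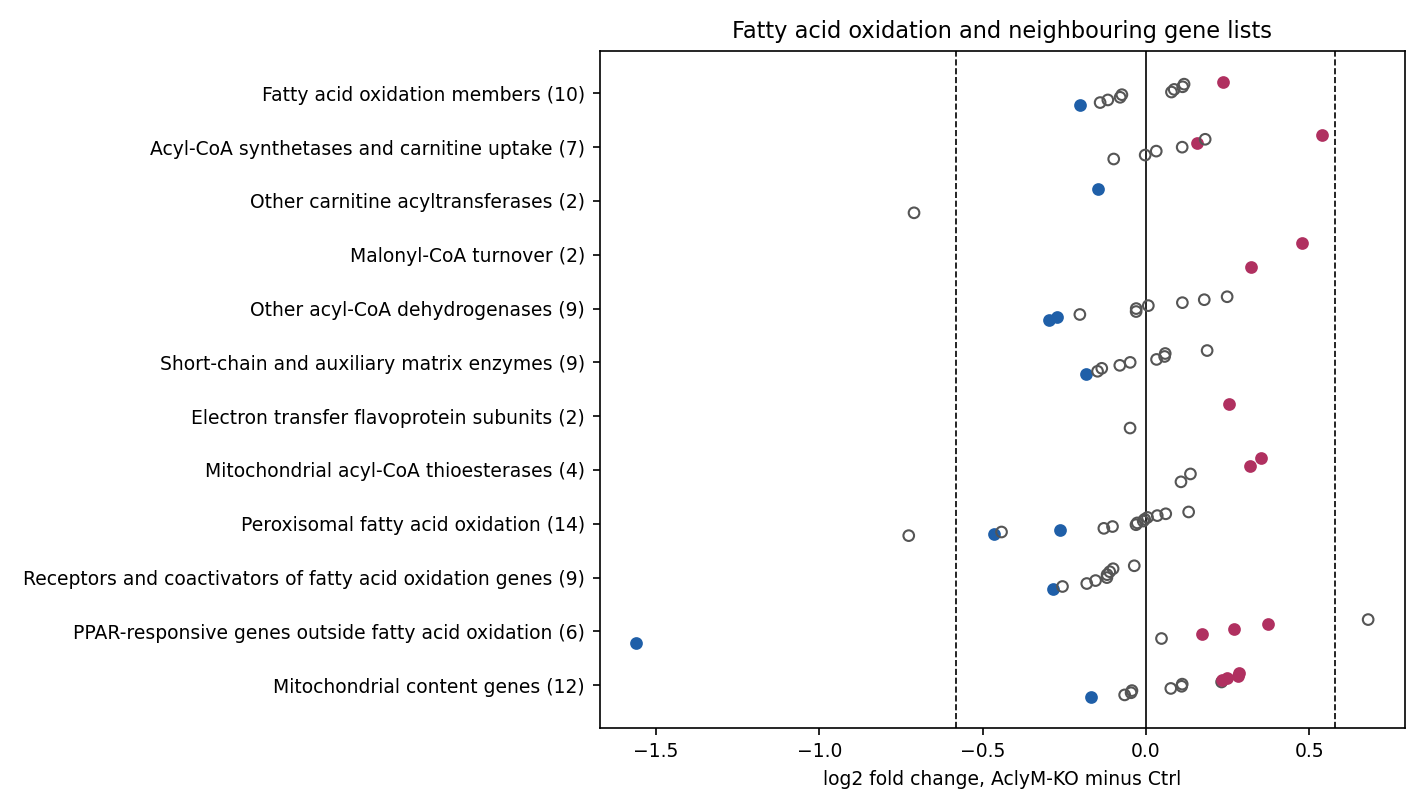
Log2 fold changes in AclyM-KO against Ctrl (horizontal axis) of the tested genes of each list, 1 circle per gene, with the number tested in parentheses. Filled red circles were called higher and filled blue circles lower at an edgeR adjusted p under 0.05, open circles were not called, and dashed lines mark -0.58 and 0.58. The fatty acid oxidation members lie between -0.20 and 0.24, and the called gene farthest from 0 in the plotted lists is *Hilpda* at -1.56.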

How the data were processed

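RNA was isolated with the RNeasy Mini Kit and strand-specific mRNA libraries were sequenced by Illumina sequencing. Per the labels, CASAVA 1.8.2 and STAR 2.5.2b were used with genome build mm10. The table deposited by the authors holds whole-number read counts, without normalization, 1 row per RefSeq transcript. The counting program is not given in the sources used here. Of 35745 rows, 99.67% were paired with a symbol through RefSeq (GRCm38.p6) and GENCODE M21. The 117 unmatched rows, with 0.370% to 1.38% of counts, entered neither the library totals nor any test. The row with the highest total was kept for each gene. Every column was used. The test was edgeR's quasi-likelihood F test (edgeR 4.0.16, R 4.3.3) after filterByExpr and TMM scaling, with genotype alone in the model, and p-values were adjusted by Benjamini-Hochberg over 12023 genes. Standard errors and 95% intervals derive from the quasi-likelihood F statistic. CPM are TMM-scaled. Permutation tests are exact and two-sided. Depth bounds the precision only through these intervals. Near-identical copies of the members were sought with blastn 2.17.0 at 90% identity or more. The fit was tested on simulated data. No pair of replicates agreed within counting noise (chi-square per gene 2.31 to 7.46, where sampling alone gives about 1).

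The members and lists were chosen with earlier results of these data known. Named are all members, *Acly* and *Lyz2*, called or lowest-p list genes, sole tested members of lists of 3 or fewer, and the most abundant marker of each marker list with a tested gene. A few others, among them *Acsl1*, *Slc22a5*, *Acads*, *Echs1*, *Hadh*, *Ppard* and *Cs*, were named after their values were seen. Alternatives were DESeq2 1.42.0, limma-voom (limma 3.58.1), other scalings, filters, row choices, thinning, a replicate term, glmTreat and leaving out each library. Replicate numbers are not said to pair libraries.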

Additional observations from a re-analysis of the deposited data

How the results depend on the processing

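No member changed direction in any of 17 alternative fits. The number of members called higher was 1 throughout except when a library was left out (1 to 2). The number called lower was 1, except 2 with library totals alone and 0 to 2 with a library left out. Beyond a log2 fold change of 0.58, 0 members were called in every fit, including glmTreat. Over all genes, 1485 were called higher and 1511 lower, and 1002 to 1512 and 972 to 1548 with a library left out. Beyond 0.58 there were 358 and 309 (315 to 374 and 271 to 317 with a library left out), and 77 and 41 with glmTreat. The other 11 lists gave 14 higher and 9 lower calls, or 9 to 12 and 6 to 11 with a library left out, the fewest higher calls without AclyM-KO replicate 1. Differences in log2 ratio ranged with a library left out from -0.079 to 0.14 for *Hadha* to *Hadhb*, 0.084 to 0.17 for *Cpt1a* to *Cpt2*, -0.11 to -0.0054 for *Acadl* to *Acadm* and 0.14 to 0.29 for *Acadvl* to *Acadl*.

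Summing the rows of a gene gave 22.8 CPM per kilobase for *Hadhb* in Ctrl against 7.59, since each of its 3 identical rows is then added. With the replicate number as a block, *Cpt1a* was at 0.24 (edgeR adjusted p = 0.00644) and *Etfdh* at -0.20 (edgeR adjusted p = 0.0296), and the member counts did not move. Same-numbered libraries correlated at -0.065, 0.050 and -0.031 in their deviations from the group means, so the numbers were not taken as pairs. The block removed the calls of *Acsl5*, *Crat*, *Acss1*, *Fabp4* and *Polg*. Each of these, and *Mlycd*, also lost its call without any 1 of 3 or more libraries, AclyM-KO replicates 1 and 2 among them for all 6. The cause of calls lost without a library was not tested.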

Other observations

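Peroxisomes oxidise very long and branched fatty acids by a parallel route. Of 14 peroxisomal genes tested, 2 fell in AclyM-KO and 0 rose, with a median log2 fold change of -0.028, while among all genes tested 12.6% were called lower and 12.4% higher. *Abcd2*, which encodes a transporter of very-long-chain acyl-CoA into the peroxisome, fell from 64.8 ± 4.96 to 47.0 ± 1.67 CPM (SD, n = 3 each, log2 fold change -0.47, standard error 0.0638, edgeR adjusted p = 7.88e-05). *Acox3*, an acyl-CoA oxidase gene for branched chains, fell from 227 ± 12.1 to 189 ± 7.68 CPM (log2 fold change -0.26, edgeR adjusted p = 0.00216). Both were called in all 17 alternative fits. The bifunctional enzyme gene *Hsd17b4* was at -0.13 (edgeR adjusted p = 0.0762).

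PPAR-responsive genes outside oxidation gave 3 higher and 1 lower of 6 tested, the latter also past 0.58, where 24.9% of all genes were called and 5.55% were also past 0.58. The fatty acid uptake receptor gene *Cd36* rose from 1972 ± 188 to 2556 ± 115 CPM (SD, n = 3 each, log2 fold change 0.37, edgeR adjusted p = 1.48e-04). The lipid droplet coat gene *Plin2* rose from 795 ± 25.7 to 960 ± 15.9 CPM (0.27, edgeR adjusted p = 1.59e-04). *Fabp4*, a fatty acid binding protein gene, rose by 0.17 on the log2 scale with overlapping groups (edgeR adjusted p = 0.0407, called in 9 of 17 alternatives). *Hilpda*, an inhibitor of lipid droplet lipolysis that is also induced by hypoxia, fell from 23.1 ± 4.913 to 7.756 ± 1.496 CPM (-1.56, edgeR adjusted p = 4.26e-06). *Pdk4*, a common target of PPAR receptors in muscle, had no count in any library.

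Calls among genes used as a gauge of mitochondrial content went both ways, with 4 of 12 higher and 1 lower, against 12.4% and 12.6% of all genes. Their log2 fold changes were above 0 for 8 genes and below 0 for 4, with a median of 0.11 (0.0014 over all genes). The ATP synthase gene *Atp5b* (0.25) and the matrix chaperone genes *Hspd1* (0.28) and *Hspa9* (0.28) rose by these log2 fold changes (adjusted p by edgeR at most 0.00181), as was the DNA polymerase gene *Polg* (0.23, edgeR adjusted p = 0.0389, called in 8 of 17 alternatives). The outer-membrane channel gene *Vdac1* fell by 0.17 (edgeR adjusted p = 0.0147), a call lost without AclyM-KO replicate 1 or 3. Citrate synthase, *Cs*, was at 219 ± 4.03 and 231 ± 2.21 CPM (SD, n = 3 each, log2 fold change 0.076, edgeR adjusted p = 0.247). *Lyz2*, the gene whose locus drives the Cre, was at 6595 ± 515 CPM in Ctrl and 4142 ± 120 CPM in AclyM-KO (log2 fold change -0.67, edgeR adjusted p = 5.79e-08). Of the macrophage markers, *Mrc1* was the most abundant, at 5397 ± 291 and 5296 ± 214 CPM (log2 fold change -0.027, edgeR adjusted p = 0.655). In that list *Adgre1* rose, while *Mertk*, *Itgam* and *Csf1r* fell, *Mertk* by 0.73 on the log2 scale (edgeR adjusted p = 2.56e-07). These are 1 higher and 3 lower of 8 tested, against 12.4% and 12.6% of all genes. *Mmp8* was the most abundant neutrophil marker and the neutrophil marker with the largest rise, from 16.9 ± 2.18 to 40.1 ± 1.77 CPM (log2 fold change 1.25, edgeR adjusted p = 1.61e-07). *S100a8* and *S100a9* also rose, *Ngp* and *Ltf* did not pass the test (edgeR adjusted p = 0.108 and 0.206), and the other 5 neutrophil markers were not tested. With *Mmp8*, 3 of 5 tested neutrophil markers were called higher, against 12.4% of all genes. All 3 were beyond a log2 fold change of 0.58, against 2.98% of all genes. Of 2 dendritic cell markers tested, *Cd209a* rose from 0.301 to 0.959 CPM (edgeR adjusted p = 0.0128) and *Zbtb46*, the more abundant, was at 2.13 and 2.20 CPM (edgeR adjusted p = 0.886). *Adipoq*, the only adipocyte marker tested, was at 21.3 ± 4.17 and 17.5 ± 0.623 CPM (-0.29, edgeR adjusted p = 0.0851).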
